A study of Oryza sativa with 20 samples.

Results

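Of 21237 genes counted in rice roots, 51 had a mean level in 1 Sri Lankan cultivar that stood apart from the means of the 4 other cultivars. The members were chosen on these same libraries. A gene was taken as high in Niyan Wee, Sarali or Moddai Karuppan when its mean there was at least 5 CPM and at least 4 times the highest of the 4 other means. It was taken as low when the lowest of the 4 other means was at least 5 CPM and at least 4 times its own. CPM are counts divided by the size of their library, scaled with the TMM method, and not divided by gene length, so levels are set side by side between cultivars and not between genes. The rule gave 6 genes high and 12 low in Niyan Wee, 11 high and 12 low in Sarali, and 9 high and 2 low in Moddai Karuppan. LOC4348069 was both low in Niyan Wee and high in Moddai Karuppan, so the 51 genes fill 52 places. Because the difference between a cultivar and the others chose the genes, that difference is described below and not tested.

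RNA was sequenced from the roots of Niyan Wee, Sarali and Moddai Karuppan, which are read here as the Sri Lankan cultivars of the study's title, and of Bala, an upland indica, and Azucena, an upland tropical japonica. Each cultivar had 4 libraries, named R1 to R4. A line of the table's header puts R1 and R2 of every cultivar in pool P1 and R3 and R4 in pool P2, without saying what was pooled. The labels give no treatment, plant age or growth condition and do not say whether the 4 libraries of a cultivar came from separate plants, so the p-values below measure only the spread between these libraries.

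Rice genomes differ from one another in gene content as well as in sequence, and genes that some cultivars carry and others lack are common among disease resistance families, of which many lie in clusters on chromosomes 11 and 12. Long noncoding RNAs, transcripts without a long reading frame, also vary widely between cultivars. The build named for these counts, IRGSP-1.0, is that of the japonica cultivar Nipponbare, and in such a table an absent gene, a gene whose sequence has diverged from that build and a silent gene all give few counts and cannot be told apart. In roots sequenced whole, fewer cells of a type and less RNA per cell cannot be told apart either.

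The libraries held 23444550 to 31996643 counts, of which 23 ribosomal RNA genes took 4.07% in Niyan Wee R1 up to 84.6% in Bala R4. Without them 3813615 to 28063068 counts remained. A total of 3 counts in the 4 libraries of a cultivar corresponded to 0.0174 CPM in Niyan Wee, 0.0268 in Sarali, 0.0214 in Moddai Karuppan, 0.0509 in Bala and 0.0254 in Azucena, a floor that covers counting error only. The root markers NIP2-1 (92.2 to 404 CPM over the cultivar means), LSI2 (50.2 to 331), AKT1, CASP1 and NRAMP5 were present in every cultivar. The root markers SHR1 (3.95 to 9.13 CPM) and SCR1 (2.51 to 4.54) were low, and the leaf marker RBCS lay between 0.94 and 2.71 CPM. The root marker RCc3 and the leaf markers CAB1R, CAB2R and LHCB were not found by name, so RBCS was the only leaf marker read. Earlier results of these data set Niyan Wee R2 and R3 and Sarali R3 apart from their groups, and without these 3 libraries 44 of the 52 places were kept. Azucena R3 also stood apart in the members, as given below, and without it 47 places were kept.

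Levels of the 51 genes were mostly moderate on the side where they were present. Over the 26 places high in a cultivar the median of the own means was 10.5 CPM. In 29 of the 52 places the 4 libraries of the cultivar lay wholly above or below all 16 others. By class these were 3 of 6 genes high and 7 of 12 low in Niyan Wee, 10 of 11 high and 5 of 12 low in Sarali, and 3 of 9 high and 1 of 2 low in Moddai Karuppan. Of all gene rows, 0.165% and 0.207% lay so in Niyan Wee, 0.396% and 0.245% in Sarali, and 0.358% and 0.221% in Moddai Karuppan, high and low in turn. The rule used the same contrast, so nothing is read from these shares.

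**Figure D1:**
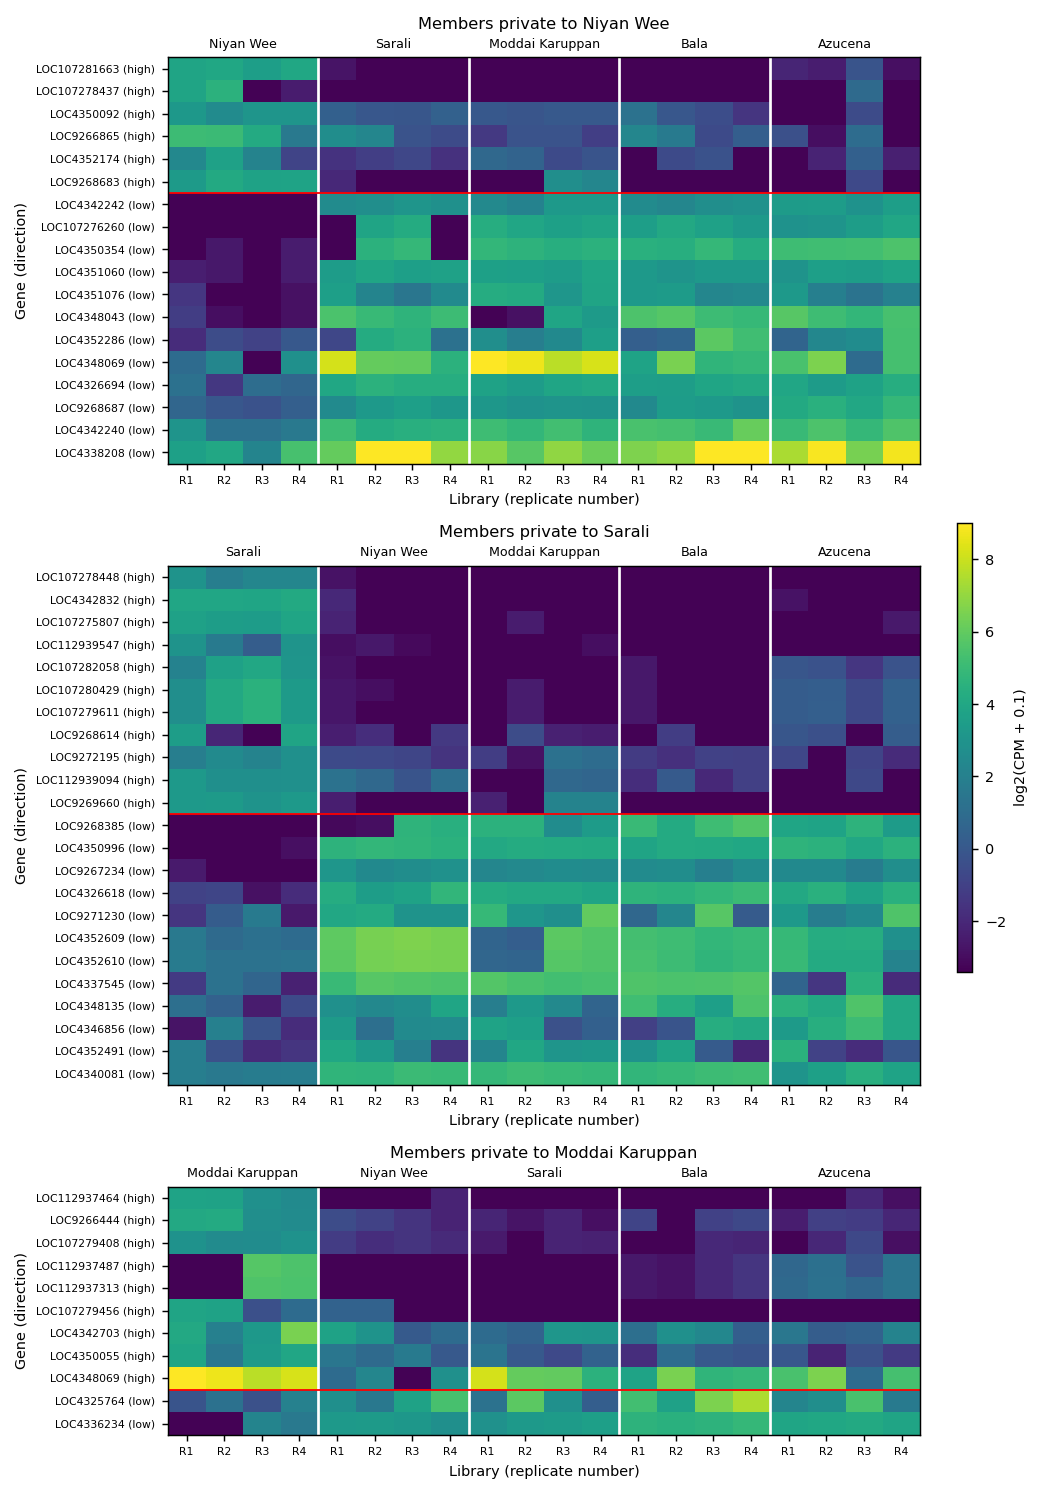
Level of every member in each of the 20 libraries as log2(CPM + 0.1), with the cultivar a gene is private to at the left of its panel and the genes high in it above the red line. Several rows are split within a cultivar, such as LOC107278437 in Niyan Wee (14.1 and 24.02 CPM in R1 and R2, 0 and 0.0825 in R3 and R4) and LOC112937487 in Moddai Karuppan (0 in R1 and R2, 52.9 and 45.9 in R3 and R4).

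The 6 genes high in Niyan Wee fell into 3 that were high in all of its libraries and 3 that were not. LOC107281663, a long noncoding RNA gene on chromosome 7, had 14.3, 15.5, 11.4 and 15.5 CPM in Niyan Wee R1 to R4, while the 16 other libraries ranged from 0 to 0.783 CPM with a median of 0. LOC4350092 (LOC_Os11g11240), a protein coding gene on chromosome 11, had 9.12, 5.97, 8.23 and 8.41 CPM in Niyan Wee and 0 to 2.33 CPM elsewhere, with a median of 0.85. LOC9268683 (LOC_Os03g10700) had 10.2, 17.2, 13.5 and 13.6 CPM in Niyan Wee, and of the other libraries only Moddai Karuppan R3 and R4, at 6.45 and 4.72 CPM, exceeded 1 CPM. In these genes no other library reached the lowest of Niyan Wee. Counts were not whole in 8 libraries for LOC107281663 and in 7 for LOC9268683. Reads that match several places may have been divided there, so the levels of both are uncertain. LOC4350092 had whole counts in every library.

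The groups overlapped in the remaining genes high in Niyan Wee, each time through its library R4 and in LOC107278437 through R3 as well. LOC107278437 (LOC_Os08g27870) had 14.1 and 24.02 CPM in Niyan Wee R1 and R2 but 0 and 0.0825 in R3 and R4, and among the 16 others it had counts in Azucena R3 alone, at 1.78 CPM. LOC9266865 (LOC_Os11g43790) stood at 34.6, 32.7, 17.9 and 2.93 CPM in Niyan Wee and reached 6.26 CPM elsewhere, in Sarali R1. LOC4352174 (LOC_Os12g27102) stood at 5.16, 12.7, 4.33 and 0.454 CPM in Niyan Wee and reached 1.64 CPM elsewhere, in Moddai Karuppan R1. The mean of each therefore rests on some libraries of the cultivar more than on others.

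Azucena R3 was the highest Azucena library in all 6 of these genes. Their summed level was 41.0 to 108 CPM in the Niyan Wee libraries, 6.80 CPM in Azucena R3 and 0.138 to 0.792 CPM in the other Azucena libraries. Among the 12 genes low in Niyan Wee, the same library was the lowest Azucena library in 7. It was the highest in 1 of 11 genes high in Sarali and in 2 of 9 high in Moddai Karuppan. Left out, it moved the ratio of the Niyan Wee mean of LOC107281663 to the highest other mean to 166, against 54.6 with it, and the ratios of LOC4350092, LOC9266865, LOC4352174 and LOC9268683 did not move, since Sarali or Moddai Karuppan was their nearest cultivar. LOC107278437, with a ratio of 21.5 with Azucena R3, had no counts outside Niyan Wee without it, so no ratio could be given.

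**Figure D2:**
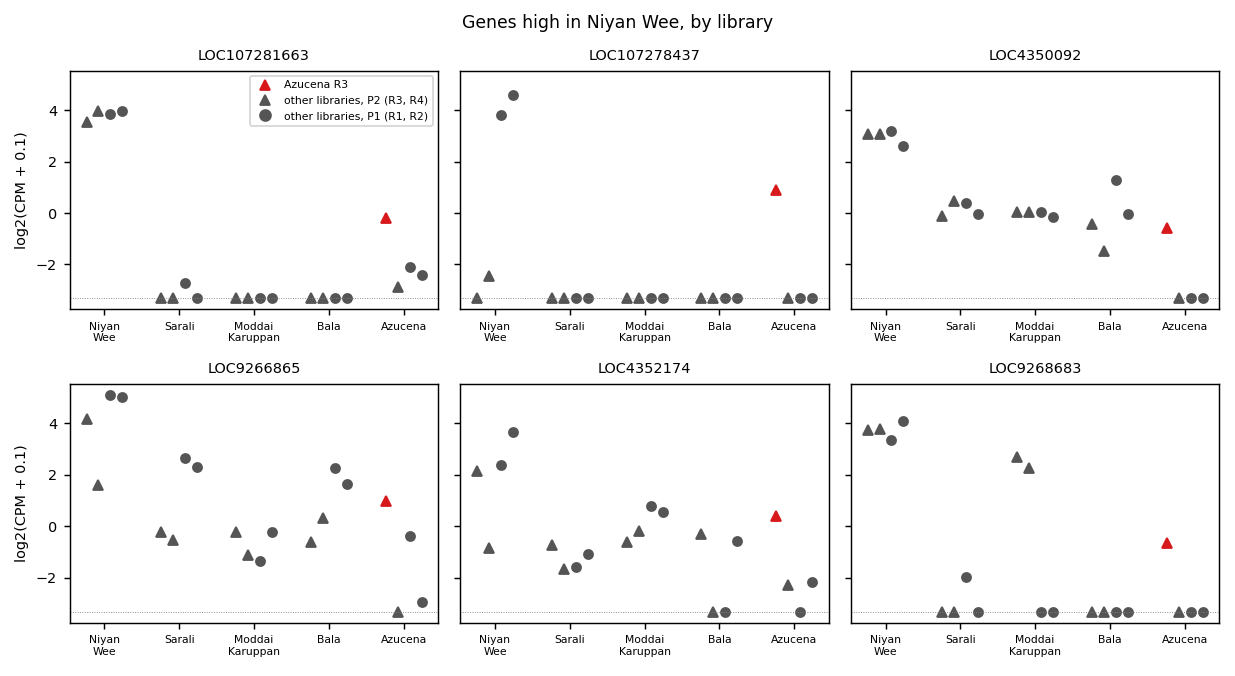
Level of the 6 genes high in Niyan Wee in each library as log2(CPM + 0.1), with P2 libraries (R3, R4) as triangles left of P1 libraries (R1, R2) as circles, Azucena R3 in red and the dotted line at 0 CPM. Azucena R3 lies above the other Azucena libraries in each panel, at most at 1.90 CPM.

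Genes low in Niyan Wee included some with next to no counts there. LOC4342242 (LOC_Os07g02250) had 0 counts in the 4 Niyan Wee libraries and 3342 counts in the 16 others, where it ranged from 4.21 to 11.6 CPM, so the lowest other cultivar mean was at least 355-fold higher than 3 counts over the Niyan Wee group would give. LOC4351060 (LOC_Os11g43895) had 10 counts in Niyan Wee, at most 0.0928 CPM, and 7.70 to 15.0 CPM elsewhere. LOC4351076 (LOC_Os11g44380) had 0.263, 0, 0 and 0.0412 CPM in Niyan Wee and 2.38 to 19.6 CPM elsewhere. All 4 Niyan Wee libraries lay below every other library in these genes.

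A pair of long noncoding RNA genes on chromosome 11 was also close to 0 in some Sarali libraries. LOC107276260 had 0 counts in Niyan Wee, while Sarali R1 to R4 stood at 0, 14.4, 18.9 and 0 CPM, and Moddai Karuppan, Bala and Azucena at 7.43 to 19.7 CPM. LOC4350354 had 4 counts in Niyan Wee, at most 0.0825 CPM, while Sarali stood at 0, 23.3, 28.5 and 0 CPM and the 3 other cultivars at 19.0 to 45.9 CPM. Sarali R1 and R4 were thus as low as Niyan Wee in both genes. LOC9268614, a long noncoding RNA gene counted among those high in Sarali, showed the opposite split, at 11.1, 0.14, 0 and 14.4 CPM in Sarali R1 to R4 and at most 1.11 CPM elsewhere.

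LOC4348043, described with the pools below, was also near 0 in Niyan Wee, with 25 counts there. LOC4326694, LOC9268687 and LOC4342240 were reduced rather than near 0. LOC4326694 (LOC_Os01g43700) had 1.49 ± 0.859 CPM in Niyan Wee, against 13.6 ± 2.71 in Bala, the nearest cultivar (SD, n = 4 each). LOC9268687, a pseudogene on chromosome 12, had 1.07 ± 0.348 CPM in Niyan Wee, against 7.99 ± 0.538 in Moddai Karuppan and 21.2 ± 5.58 in Azucena (SD, n = 4 each). LOC4342240 (LOC_Os07g02200), which lies close to LOC4342242, had 3.87 ± 2.74 CPM in Niyan Wee, against 24.3 ± 7.03 in Sarali (SD, n = 4 each). None of these overlapped between Niyan Wee and the other libraries.

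LOC4338208 (LOC_Os05g15770) had the highest CPM values among the genes low in Niyan Wee, a rank that is not corrected for gene length. It had 12.4, 16.2, 4.49 and 41.9 CPM in Niyan Wee, and 54.5 to 1528 CPM with a median of 125 in the others. The high values lay in Sarali R2 and R3 (886 and 1042 CPM) and Bala R3 and R4 (1528 and 1152 CPM). LOC4352286 (LOC_Os12g31860) had 0.186, 0.597, 0.424 and 0.907 CPM in Niyan Wee, and 0.488 to 58.8 CPM elsewhere, again with Sarali R2 and R3 (18.4 and 23.5) and Bala R3 and R4 (58.8 and 36.6) among the high libraries. Sarali R1, at 0.488 CPM, fell within the range of Niyan Wee.

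LOC4348069 (LOC_Os10g04800), a long noncoding RNA gene on chromosome 10, was the only gene private to 2 cultivars in opposite directions. It had 914, 412, 209 and 299 CPM in Moddai Karuppan R1 to R4, against 290, 67.2, 64.6 and 23.8 in Sarali, 13.7 to 89.3 in Bala and 1.81 to 94.7 in Azucena. In Niyan Wee it had 1.84, 4.78, 0 and 6.93 CPM. The order of the means was Moddai Karuppan (459 ± 315), Sarali (111 ± 121), Azucena (45.0 ± 38.1), Bala (39.5 ± 33.8) and Niyan Wee (3.39 ± 3.07; SD, n = 4 each), and the libraries of Sarali, Azucena and Bala overlapped. Sarali R1 overlapped the Moddai Karuppan libraries and Azucena R3 the Niyan Wee libraries.

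The genes high in Sarali were the most evenly separated. LOC4342832 (LOC_Os07g14514) had 15.3, 15.2, 14.6 and 17.7 CPM in Sarali, 1755 counts in all, against 11 counts in the 16 other libraries. LOC107275807 (LOC_Os10g01380) had 12.8, 11.1, 10.7 and 14.5 CPM in Sarali, 1392 counts, against 12 counts elsewhere. In each of the 20 libraries LOC4342832 and LOC107275807 lay within 1 log2 unit of each other on the log2(CPM + 0.1) scale. Their counts were not whole in 7 and 4 libraries, and reads shared between them may have been divided, so their single values are uncertain. LOC107278448 (LOC_Os03g43100), a long noncoding RNA gene, had 7.65, 3.64, 4.78 and 4.87 CPM in Sarali, 624 counts, against 3 counts elsewhere, all of them in Niyan Wee R1. LOC112939547 (LOC_Os07g39450) had 616 counts in Sarali and 6 elsewhere, with the Sarali libraries at 7.83, 3.17, 1.08 and 7.95 CPM.

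LOC107280429, LOC107279611 and LOC107282058, placed by the reference table on chromosomes 3, 12 and 8, moved together in Sarali. LOC107280429 had 6.52, 17.1, 22.5 and 10.1 CPM in Sarali, against 0.512 to 1.28 CPM in Azucena and at most 0.0802 CPM in the other cultivars. LOC107279611 had 6.47, 16.8, 22.5 and 10.1 CPM in the same Sarali libraries and LOC107282058 had 4.13, 12.8, 16.4 and 8.32. In each of the 20 libraries their values lay within 1 log2 unit of each other on the log2(CPM + 0.1) scale. The 3 genes had counts that were not whole in 11 to 12 libraries, and reads shared among them may have been divided, so their single values are uncertain.

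LOC9269660, LOC9272195 and LOC112939094 completed the genes high in Sarali. LOC9269660, a long noncoding RNA gene on chromosome 12, had 9.68, 10.2, 7.65 and 9.78 CPM in Sarali, against 4.38 and 4.30 in Moddai Karuppan R3 and R4 and at most 0.108 in all other libraries. Its neighbour LOC9272195, a pseudogene, had 3.59, 5.73, 4.33 and 7.07 CPM in Sarali, against 2.20 and 1.85 in Moddai Karuppan R3 and R4 and at most 0.557 elsewhere. LOC112939094 (LOC_Os05g09160) had 7.5 ± 1.28 CPM in Sarali, against 1.70 ± 0.69 in Niyan Wee (SD, n = 4 each). Sarali did not overlap the other libraries in any of them.

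Among the genes low in Sarali, 3 were at or near 0 counts. LOC4350996 (LOC_Os11g42040), a protein coding gene on chromosome 11, had 1 count in Sarali and 10444 counts in the others, where it ranged from 14.0 to 27.9 CPM. LOC9268385 (LOC_Os08g08690) had 0 counts in Sarali, against 23.4, 23.8, 6.07 and 10.6 CPM in Moddai Karuppan, 18.2 to 50.3 in Bala, 10.4 to 24.6 in Azucena, and 0.0155, 0.0314, 25.3 and 21.5 in Niyan Wee R1 to R4. LOC9267234 (LOC_Os04g06850) had 3 counts in Sarali and 3.37 to 8.50 CPM elsewhere. Niyan Wee R1 and R2 came close to the Sarali level of LOC9268385, and no other library did so in this group.

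LOC4326618 and LOC4340081 were lower in every Sarali library than in all 16 others. LOC4326618 (LOC_Os01g43160) had 0.411, 0.466, 0.0416 and 0.183 CPM in Sarali, and 11.4 to 32.8 CPM with a median of 18.9 elsewhere. LOC4340081 (LOC_Os06g04970) had 3.38 ± 0.309 CPM in Sarali, against 13.8 ± 5.47 in Azucena, the nearest, and 28.9 ± 3.49 in Niyan Wee (SD, n = 4 each). LOC4352609 and LOC4352610 (LOC_Os12g38720), neighbours on chromosome 12 whose values also lay within 1 log2 unit of each other, had 2.17 ± 0.531 and 2.58 ± 0.444 CPM in Sarali and 83.2 ± 16.0 and 80.7 ± 14.9 in Niyan Wee (SD, n = 4 each). They had fractional counts in 18 and 16 libraries, so how reads were divided between them is uncertain. In this pair Moddai Karuppan R1 and R2 lay below the Sarali libraries, as described below.

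The named genes among the members were low in Sarali and variable everywhere. LOC4352491 (LOC_Os12g36880), listed as PBZ1, a pathogenesis-related protein induced by probenazole, had 3.70, 0.699, 0.166 and 0.256 CPM in Sarali, against 0.128 to 23.04 CPM with a median of 6.09 in the others. LOC9271230 (LOC_Os01g03360), listed as the Bowman-Birk trypsin inhibitor RBBI3.3, had 0.257, 1.07, 3.16 and 0.0733 CPM in Sarali, against 1.03 to 64.8 CPM with a median of 8.11. Sarali overlapped the other libraries in both. The lowest other mean of PBZ1 was that of Bala, at 5.63 ± 6.37 CPM (SD, n = 4), and without Azucena R1 (23.04 CPM) the Azucena mean of PBZ1 fell below the Sarali mean.

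LOC4337545 (LOC_Os05g01330), LOC4346856 and LOC4348135 (LOC_Os10g06680) were low in Sarali by the rule but overlapped other cultivars. LOC4337545 had 0.308, 2.28, 1.46 and 0.11 CPM in Sarali, against 31.7 to 54.9 CPM in Niyan Wee, Moddai Karuppan and Bala. In Azucena it had 1.41, 0.27, 22.6 and 0.173 CPM, so that R3 alone lifted Azucena above Sarali. LOC4346856 had 0.0513 to 3.92 CPM in Sarali, and Niyan Wee R2 (2.11), Moddai Karuppan R3 and R4 (0.689 and 1.21) and Bala R1 and R2 (0.389 and 0.781) lay in that range. LOC4348135 had 0.986 ± 0.86 CPM in Sarali, against 5.02 ± 3.53 in Moddai Karuppan (SD, n = 4 each), where R4 (1.42) lay below Sarali R1 (2.05).

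Of the 9 genes high in Moddai Karuppan, 3 were high in all of its libraries and near 0 in the others. LOC112937464, a long noncoding RNA gene on chromosome 12, had 13.9, 13.3, 6.89 and 5.66 CPM in Moddai Karuppan, 1345 counts, against 9 counts in the 16 others. LOC9266444, a long noncoding RNA gene on chromosome 11, had 16.6, 18.0, 6.62 and 5.90 CPM in Moddai Karuppan, against 0 to 0.603 elsewhere. LOC107279408, a pseudogene on chromosome 11, had 7.40, 5.81, 6.16 and 7.60 CPM in Moddai Karuppan, against 0 to 0.512. In the first pair R1 and R2 exceeded R3 and R4, and in the pseudogene they did not.

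LOC4342703 (LOC_Os07g10840) and LOC4350055 (LOC_Os11g10520) were less even. LOC4342703 had 16.6, 3.85, 9.29 and 90.8 CPM in Moddai Karuppan, against 0.983 to 13.1 CPM elsewhere. LOC4350055 had 14.8, 2.73, 10.1 and 15.1 CPM in Moddai Karuppan, against 0.12 to 3.18. In both genes R2 fell within the range of the other libraries, and in LOC4342703 R3 did as well. LOC107279456 (LOC_Os11g28670), a long noncoding RNA gene, had 14.3, 13.4, 0.667 and 1.82 CPM in Moddai Karuppan R1 to R4 and 1.33, 1.32, 0 and 0 CPM in Niyan Wee, with 0 counts in Sarali, Bala and Azucena.

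Only 2 genes were low in Moddai Karuppan. LOC4336234, a long noncoding RNA gene on chromosome 4, had 0, 0, 4.44 and 3.00 CPM in Moddai Karuppan, against 6.72 to 29.1 CPM elsewhere, with no overlap. LOC4325764, a protein coding gene on chromosome 1, had 0.78, 2.21, 0.689 and 4.03 CPM in Moddai Karuppan, against 1.14 to 178 CPM with a median of 9.96. Niyan Wee R2 (2.83 CPM), Sarali R1 and R4 (2.34 and 1.14 CPM) and Azucena R4 (3.05 CPM) lay within its Moddai Karuppan range.

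A set of members was nearly off in one pool and on in the other pool of the same cultivar, most of all in Moddai Karuppan. LOC112937487, which the reference table does not list, had 52.9 and 45.9 CPM in Moddai Karuppan R3 and R4, against 0 in R1 and R2, and LOC112937313 had 48.3 and 45.4 against 0 and 0. Both were at 0 counts in Niyan Wee and Sarali and stood at 0.752 to 2.53 CPM in Azucena, above Moddai Karuppan R1 and R2. The pair lay within 1 log2 unit of each other in every library and had fractional counts in 9 libraries, so how its reads were divided is uncertain.

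Members private to other cultivars were split in Moddai Karuppan in the same way. LOC4352609 had 58.1 and 50.1 CPM in R3 and R4, against 1.43 and 1.12 in R1 and R2, and LOC4352610 had 52.9 and 48.5 against 1.51 and 1.40. LOC4348043 (LOC_Os10g04270), at most 0.356 CPM in Niyan Wee and 25.7 to 54.1 in Sarali, Bala and Azucena, had 14.9 and 10.2 in Moddai Karuppan R3 and R4, against 0 and 0.0401 in R1 and R2. In these genes Moddai Karuppan R1 and R2 shared the low level of the cultivar the gene was private to. LOC9268683 had 6.45 and 4.72 CPM against 0 and 0, and LOC9269660 had 4.38 and 4.30 against 0.108 and 0. Splits in the opposite direction occurred as well. LOC4346856, low in Sarali, had 0.689 and 1.21 CPM in Moddai Karuppan R3 and R4, against 13.9 and 12.2 in R1 and R2. LOC107279456 was likewise lower in R3 and R4, as given above. Neither is among the genes that passed the Moddai Karuppan pool test below.

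The pools were tested within each cultivar with edgeR's quasi-likelihood test and Benjamini-Hochberg adjustment over all 21225 genes, a comparison added after these values had been seen. In Moddai Karuppan 8 of 50 members tested passed, all higher in P2 (16.0%), where 0.438% of all genes passed and 0.41% were higher. They were LOC4336234 (adjusted p = 1.28e-06), LOC112937313 (1.29e-05), LOC4352609 (2.10e-05, log2 fold change 5.39), LOC4348043 (2.43e-05), LOC112937487 (0.000131), LOC4352610 (0.000131, 5.12), LOC9269660 (0.0215) and LOC9268683 (0.0408). The calls of LOC9269660 and LOC9268683 were lost in 8 and 10 of 25 alternatives and those of the other 6 in none. The pairs LOC4352609 and LOC4352610, and LOC112937487 and LOC112937313, may share reads, so their calls are not independent of each other. Members chosen for large differences between cultivar means are not a sample of all genes, so the shares are set side by side as a description.

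In Niyan Wee 2 of 50 members differed between the pools by the same test, where 0.433% of all genes did. LOC9268385 was higher in P2 (0.217% of all genes), at 25.3 and 21.5 CPM, against 0.0155 and 0.0314 in P1 (adjusted p = 1.31e-05), which held in all 25 alternatives. LOC107279456 was lower in P2 (0.217% of all genes), at 0 and 0, against 1.33 and 1.32 CPM (adjusted p = 0.0324), a call lost in 8 alternatives. LOC107278437 did not enter the test, because it had counts in too few libraries to pass the filter on low counts. By edgeR 0 members passed in Sarali, Bala and Azucena, where 0%, 0.0518% and 0% of all genes did, with 4, 4 and 9 at an unadjusted p below 0.05, and by DESeq2 0, 2 and 0. Without Azucena R4, 6 members passed in Azucena. The unadjusted counts, the DESeq2 counts and the count without Azucena R4 have no share of all genes beside them. Nothing about the members is therefore read from them.

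The ribosomal RNA share did not separate the pools of Moddai Karuppan, at 33.6% and 45.3% in P2 and 38.2% and 51.1% in P1. The pool is nested in pairs of libraries, so what sets R3 and R4 apart from R1 and R2 cannot be told apart from the pool. With only the P1 libraries, 35 of the 52 places met the rule, with only the P2 libraries 37, and 24 met it in both. In P1 alone the means of LOC112937487 and LOC112937313 in Moddai Karuppan lay below that of Azucena (log2 ratios of −4.41 and −4.49), and those of LOC4352609 and LOC4352610 in Sarali lay above that of Moddai Karuppan (0.83 and 0.89).

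**Figure D3:**
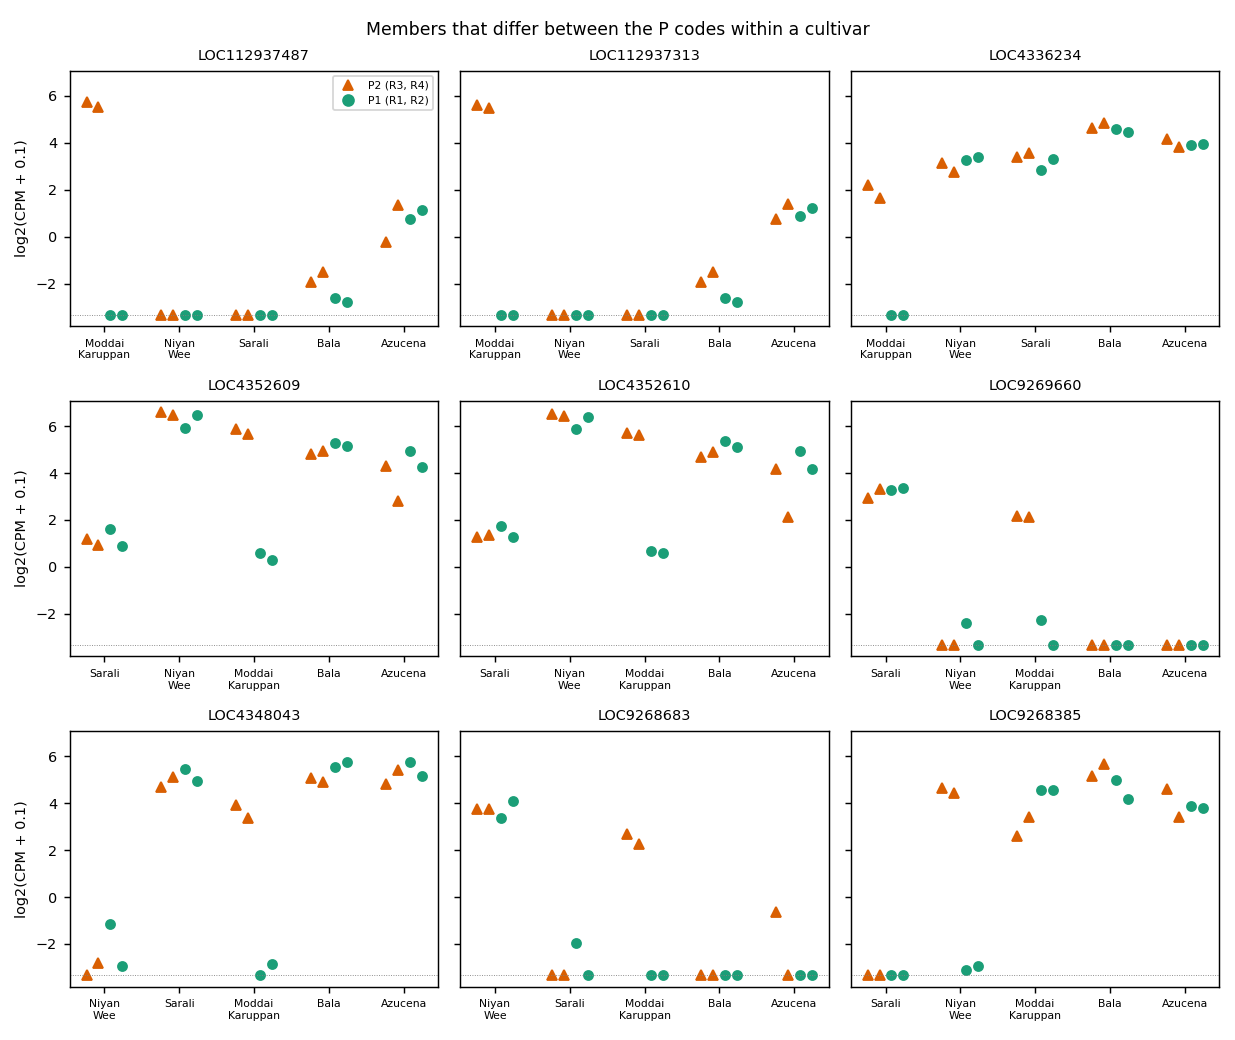
Level in each library, as log2(CPM + 0.1), of 9 members called between the pools of a cultivar, with P2 (R3, R4) as orange triangles left of P1 (R1, R2) as green circles, the cultivar the gene is private to first in each panel and the dotted line at 0 CPM. In 8 panels Moddai Karuppan P2 lies above P1, and in that of LOC9268385 Niyan Wee P2 (25.3 and 21.5 CPM) lies above P1 (0.0155 and 0.0314 CPM).

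Whether a member's difference from the 4 others changed with the pool was tested as an interaction in one model of all libraries. A member with 0 counts in all libraries of any cultivar could not be tested this way, because the pool difference of that cultivar has no estimate. This was so for 4 Moddai Karuppan, 4 Niyan Wee and 7 Sarali members, whose p-values were all 0.999 or higher. LOC112937487 and LOC112937313 were among them, although both differed between the Moddai Karuppan pools as given above. For Moddai Karuppan 1 of 11 members in the fit (7 of them testable) passed, LOC4336234 (adjusted p = 3.41e-06), where 0.231% of all genes did, and 3 passed by DESeq2. For Niyan Wee 0 of 17 (13 testable) passed by edgeR, where 0.221% of all genes did, with 1 at an unadjusted p below 0.05 and 1 by DESeq2. For Sarali 0 of 23 (16 testable) passed, where 0.00942% did, with 6 at an unadjusted p below 0.05 and 0 by DESeq2. The DESeq2 and unadjusted counts have no share of all genes beside them, so nothing is read from them. LOC4336234 had 4.44 and 3.00 CPM in Moddai Karuppan P2 and 0 in P1, while Bala, for example, had 24.4 and 29.1 CPM in P2 and 24.3 and 22.2 in P1.

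Differences among the 4 other cultivars were tested as well. The rule bounded the highest or lowest of those 4 means, so the members' shares are set beside those of all genes as a description. By edgeR's F test 5 of 17 Niyan Wee members tested differed among the 4 others (29.4%, 28.6% of all genes), 7 of 23 Sarali members (30.4%, 27.7%) and 3 of 11 Moddai Karuppan members (27.3%, 25.8%). LOC4348069, which the rule itself placed in 2 classes, is 1 of those that passed for Niyan Wee and for Moddai Karuppan. Without it the counts are 4 of 16 and 2 of 10. The 2 left for Moddai Karuppan, LOC112937487 and LOC112937313, may share reads, so their calls are not independent of each other. With each library left out in turn the Moddai Karuppan count lay between 1 and 3, and the Niyan Wee count between 3 and 6. LOC9268687 (adjusted p = 0.000309) was highest in Azucena, LOC107281663 (0.00658) had counts in Azucena and Sarali R1 and in no library of Moddai Karuppan or Bala, and LOC9268683 (0.0079; DESeq2, 0.0888) was highest in Moddai Karuppan. LOC4350092 (0.0495) was lost in 21 of 27 alternatives, the replicate block (0.0574) among them.

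For Sarali the genes that differed among the others were LOC107280429 (adjusted p = 4.29e-06), LOC107279611 (4.95e-06), LOC107282058 (2.61e-05), LOC4340081 (0.000496), LOC9269660 (0.00202), LOC4348135 (0.00843) and LOC4350996 (0.02). The first 3 were highest in Azucena, at means of 0.997, 1.01 and 0.647 CPM, about or below 1 CPM. These 3 may share reads, so their calls are not independent of each other. LOC4340081 was lowest in Azucena, at 13.8 CPM, against 28.9 to 32.1 in Niyan Wee, Moddai Karuppan and Bala. LOC4350996 ranged from 16.2 ± 1.72 CPM in Bala to 25.4 ± 2.28 in Niyan Wee (SD, n = 4 each), and its call was lost in 2 alternatives. For Moddai Karuppan, LOC112937313 (0.0325, lost in 8 of 27) and LOC112937487 (0.0454, lost in 19, among them the replicate block, 0.0528) were highest in Azucena.

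The level of many members varied widely between libraries of 1 cultivar. Where a cultivar's mean reached 5 CPM, the median coefficient of variation of members was 42.5% in Niyan Wee (22 genes), 41.7% in Sarali (26), 46.5% in Moddai Karuppan (32), 24.7% in Bala (26) and 38.9% in Azucena (26). Over all genes whose mean there reached 5 CPM it was 20.2%, 16.6%, 14.0%, 18.9% and 18.1% in the same order. That set has no upper limit and was not matched to the members in level. The rule also rests on means, which a wide spread moves, so this difference in spread was not tested. Of the 52 places, 27 were kept whichever of the 20 libraries was left out.

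The members also differed from the table as a whole in what they are annotated as. Of the 51 genes 30 were protein coding (58.8%, 90.8% of all rows), 13 were long noncoding RNA genes (25.5%, 4.93%), 3 were pseudogenes, 3 miscellaneous RNA genes and 2 were not listed in the reference table. An MSU7 locus identifier was missing for 19 members (37.3%, 10.5% of all rows). Counts that were not whole, as arise when reads that match several places are divided, occurred in 24 members (47.1%) and 18.9% of all genes. Chromosomes 11 and 12 held 11 and 10 members, 41.2% of the 51 and 11.2% of all rows, and chromosome 2 held 0. On chromosome 12, LOC4352609 and LOC4352610 are neighbours that may share reads, and LOC9269660 and LOC9272195 are neighbours. LOC107279611, also placed there, may share reads with genes placed on chromosomes 3 and 8. All rows include genes below the level a member needs, so these shares are a description only.

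**Figure D4:**
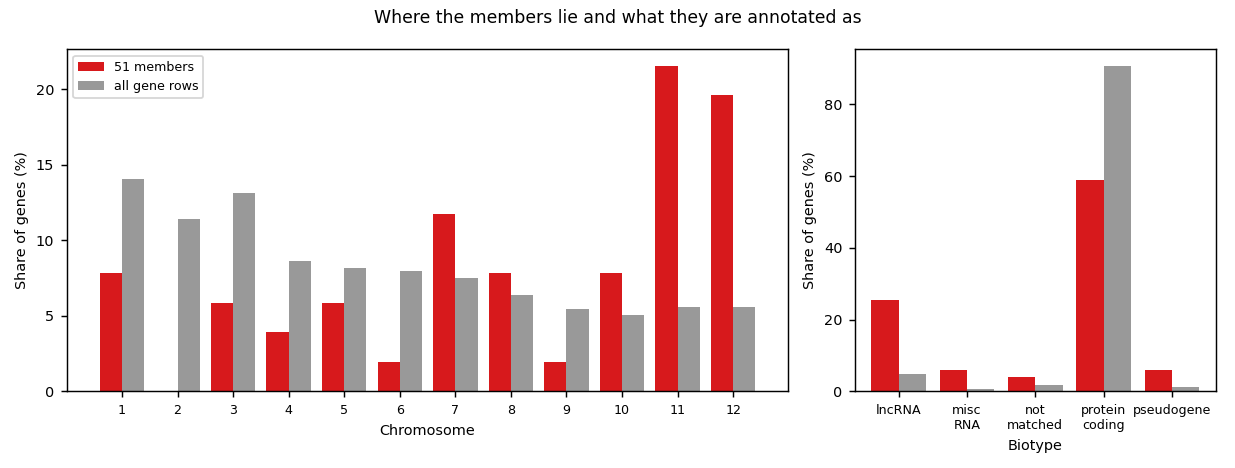
Share of the 51 members (red) and of all 21237 gene rows (grey) on each chromosome at the left and by annotated biotype at the right, both in percent. Chromosomes 11 and 12 hold 21.6% and 19.6% of members and 5.58% and 5.59% of all rows, and long noncoding RNA genes make up 25.5% of members and 4.93% of all rows.

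No member carried a gene symbol in place of a LOC number, and PBZ1, RBBI3.3 and a clone name for LOC4346856 were the only synonyms. Of 17 lists of genes built from symbols, such as 20 aquaporins (the water channels named in the study's title), 31 expansins, 54 nutrient transporters, 23 Casparian strip proteins, 26 cytochrome P450 genes and 5 resistance genes, each held 0 members. The lists reach named genes only, so members without a name could not be placed in them.

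Some members stood beside genes that moved the same way. In the gene order of the reference table, the nearest measured gene on either side was more than 2-fold different in the member's direction, on the log2(CPM + 0.1) scale, in 24 of 96 places (25%), and in the opposite direction in 5. Places where that nearest gene was itself a member were left out of all these counts. Beside genes low in Niyan Wee it was 8 of 24, where 4.68% of all rows lay so, and beside genes low in Sarali 7 of 22, where 6.00% did. For low in Moddai Karuppan it was 2 of 4 (5.79%), and for high in Niyan Wee, Sarali and Moddai Karuppan it was 3 of 12 (3.85%), 2 of 20 (3.06%) and 2 of 14 (3.76%).

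Runs of such neighbours lay beside some genes with almost no counts and not beside others. On both sides of LOC4350996, LOC4350994 and LOC4350997 had 0 CPM in Sarali, and 3.02 to 6.15 and 0.113 to 1.31 CPM over the other cultivar means, as did the next gene LOC4350998 (0 in Sarali, 1.36 to 8.56). Beside LOC4342242, LOC107276909 had 0.0348 CPM in Niyan Wee and 0.827 to 15.2 elsewhere, and LOC4342240, itself a member, lay on the other side with LOC4342241 between them, which had 23.7 CPM in Niyan Wee and 39.5 to 51.3 elsewhere. Beside LOC4348043, LOC9270570 had 0.0155 CPM in Niyan Wee and 0.277 to 14.6 elsewhere, and LOC4348039, the third measured gene away, had 0 in Niyan Wee and 1.74 to 7.46 elsewhere. Beside LOC4351076, LOC4351074 had 0.049 CPM in Niyan Wee and 1.21 to 1.75 elsewhere.

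Some high members had such neighbours too, and some low members had none. LOC9269660 and LOC9272195 (9.33 and 5.18 CPM in Sarali) were followed by LOC4351961, at 3.45 CPM in Sarali and 0.075 to 0.725 elsewhere. LOC107281520, next to LOC4342832, had 1.93 CPM in Sarali and at most 0.0745 elsewhere. LOC4326618, by contrast, lay between LOC4326617 (13.9 CPM in Sarali, 13.5 to 14.6 elsewhere) and LOC4326619 (12.9 in Sarali, 11.9 to 12.8 elsewhere), so its low level in Sarali (0.275 CPM) was not shared by the genes on either side. LOC4351060 and LOC4350354, near 0 in Niyan Wee, and LOC9267234, near 0 in Sarali, had no such neighbour directly beside them either. The log2 differences there were −0.71 and −0.32, −0.23 and 0.29, and −0.023 and −0.53 in turn.

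**Figure D5:**
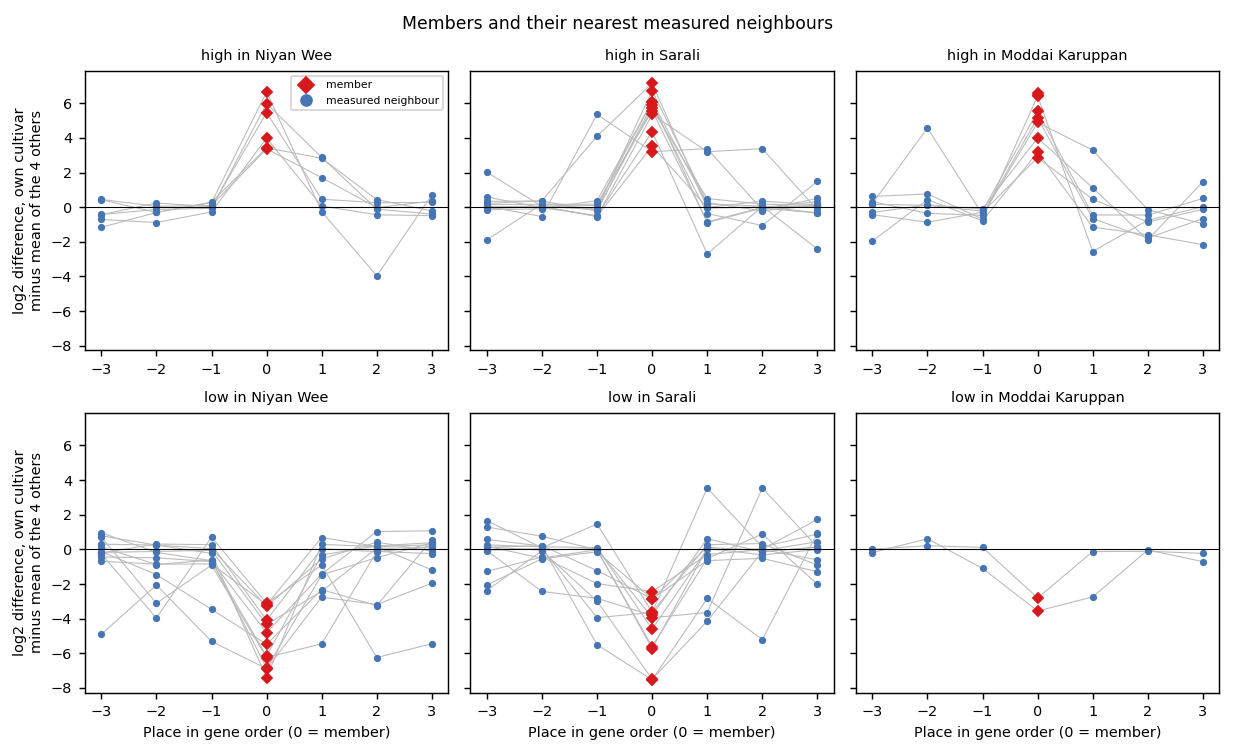
Difference between the mean of the cultivar and the mean of the 4 others, in log2(CPM + 0.1), for each member (red, place 0) and its 3 nearest measured genes on either side (blue), with 1 panel for each class. Most neighbours lie near 0, and those of the low classes reach −6.24 (LOC4342242 beside LOC4342240) and −5.50 (LOC4350994 beside LOC4350996).

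Close to the threshold of 4, the smallest ratios among members were 4.09 (LOC4340081, low in Sarali), 4.12 (LOC4348069, high in Moddai Karuppan) and 4.25 (LOC9269660, high in Sarali), and just outside it lay LOC4334707 (3.95, low in Niyan Wee), LOC112939706 (3.85, high in Niyan Wee) and LOC107279766 (3.72, low in Sarali). LOC112939706 had 7.81 CPM in Niyan Wee and 2.03 in the nearest cultivar, and LOC4334707 had 3.46 CPM in Niyan Wee and 13.7 in the nearest. The ratio was 10 or more in 28 of the 52 places.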

How the data were processed

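Root RNA was sequenced in 20 libraries of 5 cultivars, with a stranded total RNA kit that removes ribosomal RNA per the labels' protocols. The submitters' processing notes name HISAT2, edgeR 3.36.0 and the build IRGSP-1.0. How reads were assigned to genes, and with which annotation, is not given in the sources used here. Expected counts per gene were deposited by the authors, and 7.58% of the values are not whole (tolerance 1e-09). The design assumed whole counts, so values were rounded before testing. Of the rows, 2 named no gene and were left out, and 21237 remained. The rule left out 1 gene, which is not reported here.

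Members were chosen on means of TMM-scaled CPM over the 4 libraries of a cultivar. Members, lists and tests were chosen with earlier results of these data known. Tests used edgeR 4.0.16 (glmQLFit, glmQLFTest; limma 3.58.1, R 4.3.3) on all 20 libraries after filterByExpr (min.count 10), by which 12 genes dropped out and 21225 stayed, with Benjamini-Hochberg adjustment and a threshold of 0.05. One model had 1 mean per cultivar, another 1 mean per cultivar and pool. DESeq2 1.42.0, other scalings, filters, libraries left out and a replicate block (the labels' "batch rep" number) were alternatives. Across 40 pairs of libraries with the same number, deviations from the cultivar means correlated at −0.264 to 0.281 (median 0.0495), over 0.1 in 15, and the fits without the block were kept. No columns held identical values. The procedure was tested on simulated counts.

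Chromosomes were read from the MSU7 locus identifier, which 19010 rows had, and otherwise from a RefSeq table of assembly ASM3414082v1. Biotypes, synonyms and gene order came from that RefSeq table, matched for 20839 rows. Its assembly is not the build of the counts, so no coordinates are given. Text names members with the largest ratios, highest levels, a name or synonym, a call or a member beside them, those next to the threshold, and the neighbours of named members. Others are named for splits within a cultivar and were chosen after their values were seen.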

Additional observations from a re-analysis of the deposited data

Results flagged for a closer look

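In 13 of 132 groups of 4 libraries checked, 1 library stood farther from the rest than Dixon's 95% critical value for its distance. Chance would flag about 1 group in 20 only had groups been taken regardless of level. Here a member's group entered once it averaged 5 CPM or more, which a single high library can bring about. The number flagged is therefore not set against chance. Azucena R3 stood apart in LOC4337545 (22.6 CPM, against 0.173 to 1.41 in the other Azucena libraries), LOC4350996 (16.1 CPM, low) and LOC4325764 (42.7 CPM, high). In LOC4325764 Sarali R2 (57.8 CPM) did so as well.

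Other single libraries that stood above their group were Sarali R1 in LOC4348069 (289.81 CPM) and LOC112939094 (9.42 CPM), Azucena R4 in LOC4352286 (40.0 CPM), Azucena R1 in LOC4352491, listed as PBZ1 (23.04 CPM), and Moddai Karuppan R4 in LOC4342703 (90.8 CPM). The trypsin inhibitor LOC9271230 stood apart in Bala R3 (55.2 CPM) and Azucena R4 (48.4 CPM). Bala R2 was low in LOC4351060 (8.11 CPM) and Bala R3 in LOC9267234 (3.73 CPM).

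The difference of LOC4336234 between Moddai Karuppan and the 4 other cultivars was not the same in both pools (edgeR interaction, adjusted p = 3.41e-06), and this call held in all 26 alternatives, with the largest adjusted p at 0.000206.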

How the results depend on the processing

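Counts of members in each class moved with the rule and the libraries. A ratio of 3 gave 7 genes low in Moddai Karuppan (2 at a ratio of 4). A ratio of 6 gave 7 low in Sarali and 1 low in Moddai Karuppan. A floor of 10 CPM gave 3 high and 5 low in Niyan Wee, 5 high and 7 low in Sarali and 1 low in Moddai Karuppan. Without ribosomal RNA genes, which raises every CPM value by construction, all 52 places were kept and 34 added, with 21 low in Sarali and 20 high and 6 low in Moddai Karuppan. P1 alone gave 11 high in Niyan Wee, 20 high and 4 low in Sarali and 10 low in Moddai Karuppan, and P2 alone gave 7 high in Sarali and 14 high and 1 low in Moddai Karuppan. RLE scaling kept all 52 places. With medians in place of means, 41 were kept and 13 added.

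With each library left out in turn, the classes held 5 to 7 genes high and 10 to 23 low in Niyan Wee, 8 to 12 high and 8 to 14 low in Sarali, and 8 to 11 high and 1 to 5 low in Moddai Karuppan. The 23 arose without Niyan Wee R4, the 5 and a count of 4 without Moddai Karuppan R3 and R4, and the 1 without Sarali R2 or Azucena R3. Members called among the other cultivars numbered 3 to 6 for Niyan Wee (3 without Moddai Karuppan R1), 7 to 9 for Sarali and 1 to 3 for Moddai Karuppan (1 without Niyan Wee R1, Sarali R1, Bala R1, R3 or R4, or Azucena R1, R2 or R4). Interaction calls were 0 to 1 (1 without Niyan Wee R2), 0 to 0 and 1 to 1 for these cultivars. Pool calls were 1 to 3 in Niyan Wee (1 without its R2, R3 or R4 or Moddai Karuppan R1 or R2), 0 to 0 in Sarali, 6 to 9 in Moddai Karuppan, 0 to 1 in Bala (1 without Sarali R1 or R2) and 0 to 6 in Azucena (6 without its R4). The pool tests and their alternatives were chosen after seeing the data. Shares of all genes under these alternatives are not given, so the counts describe the members only.

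Without Niyan Wee R2 and R3 and Sarali R3, 0 Moddai Karuppan members were called among the others and 1 between the pools of Niyan Wee, and without Bala R3 and R4 1 Moddai Karuppan member was called among the others. DESeq2 gave 1 and 3 interaction calls for Niyan Wee and Moddai Karuppan and 1 and 2 pool calls in Niyan Wee and Bala. The cause of these moves was not tested, and no share of all genes is given beside these counts. With the replicate block the calls among the others were 5, 8 and 3 and the interaction calls 0, 0 and 1. Of the calls made without the block, only those of LOC4350092 and LOC112937487 were lost with it. The block also let in other calls, since the counts did not fall, and these are not named here. It could not be fitted to pools within a cultivar, where each number lies in 1 pool, and pool tests without Bala R3 and R4 were not run, as Bala then has no P2 library.

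Directions against the nearest cultivar turned (log2 ratios) in P2 alone for LOC107278437 (−2.73) and in P1 alone for LOC4348043 (1.33), LOC4337545 (0.54), LOC4346856 (1.61), LOC4352609 (0.83), LOC4352610 (0.89), LOC4342703 (−0.031), LOC112937487 (−4.41) and LOC112937313 (−4.49). LOC4337545 also turned with medians (0.065) and without Azucena R3 (0.67, with −3.10 to 0.67 over all libraries left out in turn), LOC4346856 without Bala R3 and R4 (0.97), and LOC4352491 without Azucena R1 (1.18, with −3.59 to 1.18 in turn). In 1239 other comparisons of a member under an alternative the ratio moved by less than the spread, and in 152 by more. Bala R4, with 3813615 counts outside ribosomal RNA, limits what can be seen of low genes most.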
